A study of Homo sapiens with 18 samples.

Results

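Histone lysine methyltransferases and demethylases were described in MDA-MB-231 cells after depletion of HP1γ or PRMT5 with and without dexamethasone. Members were found by their symbols: the numbered KDM, KMT, SETD, NSD, SMYD and PRDM genes, with EZH1, EZH2 and DOT1L. The sex-linked KDM5 genes lie outside this rule and are not reported here. The rule found 61 genes among the 60642 symbols of the count files, and 52 of them had enough reads to be tested among 15298 genes. Of the other 9 members, KDM4E, KDM4F, PRDM13 and SMYD1 had 0 counts in all 18 libraries, and PRDM7, PRDM9, PRDM12, PRDM14 and PRDM16 had too few reads.

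MDA-MB-231 cells were derived from a triple-negative breast tumour and form a single established line, grown here in phenol red-free medium with charcoal-stripped serum. They were transfected with SMART-pool siRNAs, which mix several siRNAs against 1 mRNA, directed at HP1γ (gene CBX3), at PRMT5 or at no specific sequence (siNS). Each kind of cell then received dexamethasone (Dex, a synthetic glucocorticoid) at 100 nM or the vehicle ethanol (Eth) for 8 h. This gave 6 conditions (siNS, siHP1γ and siPRMT5, each with Eth and with Dex) of 3 biological replicates.

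Lysine methyltransferases transfer methyl groups from S-adenosylmethionine to histone lysines, and demethylases remove them with either FAD (the KDM1 family) or iron and 2-oxoglutarate (the JmjC family). Methylation of H3K4 and H3K36 accompanies active promoters and transcribed genes. Methylation of H3K9 and H3K27 and trimethylation of H4K20 are known for silent or compacted chromatin. HP1γ binds methylated H3K9, and PRMT5 methylates arginines of histones and of splicing proteins, and neither is itself a lysine methyltransferase or demethylase.

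Between 8682992 and 12472381 reads per library were assigned to genes. CPM are read counts scaled to the library's total, which was adjusted by TMM normalization except for the cell markers. The depletions were seen at the targeted mRNAs. PRMT5 was at 249 ± 20 CPM (mean ± SD, n = 3) in siNS Eth cells and 7.41 ± 1.17 in siPRMT5 Eth cells. CBX3 was at 256 ± 20.1 and 9.89 ± 0.657 CPM in siNS Eth and siHP1γ Eth cells. The mesenchymal markers VIM, CD44, ZEB1 and AXL and the glucocorticoid receptor gene NR3C1 lay at 120 CPM (NR3C1) or above in every library, whereas ESR1, PGR, CDH1 and the leukocyte genes PTPRC and CD3E had at most 2 reads. The expected markers were not all stable: AXL ranged from 178 to 989 CPM. The lowest log2 difference among these 5 genes was -2.13 in siPRMT5 against siNS cells, with Eth and with Dex. Of the other markers checked as low in this line, ERBB2 had 222 to 397 reads, EPCAM 80 to 155 and GATA3 24 to 89, and the macrophage marker CD68 had 12 to 39. In bulk RNA, fewer cells with a transcript and less transcript per cell cannot be told apart.

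Promoter sequences are shown for 4 members that carry the clearest contrasts: KMT5A and KMT5B, which moved in opposite directions after PRMT5 depletion, EZH2, which differed in opposite directions after the 2 depletions, and PRDM1, the member with a called difference in Dex response. Each is the RefSeq promoter of GRCh38.p14, 5′ to 3′ on the gene's strand, from 250 bases before the start to 30 bases from the start on. Capitals mark a GC box (GGGCGG, the site of SP1 and related factors) in KMT5A and KMT5B, and an E2F site (TTTGGCGC) in EZH2. The EZH2 window also holds GGGCGG and CCAAT and the KMT5A window CCAAT, left in lower case. They lie at chr12:123383882-123384161 (plus strand), chr11:68213267-68213546 (minus strand), chr7:148884262-148884541 (minus strand) and chr6:106086086-106086365 (plus strand).
KMT5A: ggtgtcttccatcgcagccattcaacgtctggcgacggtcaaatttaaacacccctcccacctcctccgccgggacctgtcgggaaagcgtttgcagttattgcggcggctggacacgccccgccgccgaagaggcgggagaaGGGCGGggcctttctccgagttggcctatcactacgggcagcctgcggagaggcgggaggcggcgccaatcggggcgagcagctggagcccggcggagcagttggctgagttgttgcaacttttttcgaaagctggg
KMT5B: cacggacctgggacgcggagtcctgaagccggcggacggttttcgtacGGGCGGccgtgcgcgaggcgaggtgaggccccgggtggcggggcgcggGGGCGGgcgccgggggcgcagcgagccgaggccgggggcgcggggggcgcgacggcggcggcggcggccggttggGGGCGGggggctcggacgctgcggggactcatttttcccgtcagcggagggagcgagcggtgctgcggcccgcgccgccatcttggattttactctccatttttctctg
EZH2: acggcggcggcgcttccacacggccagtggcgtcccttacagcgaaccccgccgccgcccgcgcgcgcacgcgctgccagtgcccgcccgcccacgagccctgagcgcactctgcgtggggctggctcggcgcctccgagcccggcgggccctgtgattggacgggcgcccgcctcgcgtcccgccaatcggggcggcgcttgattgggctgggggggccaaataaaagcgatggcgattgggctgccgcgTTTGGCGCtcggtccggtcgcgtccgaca
PRDM1: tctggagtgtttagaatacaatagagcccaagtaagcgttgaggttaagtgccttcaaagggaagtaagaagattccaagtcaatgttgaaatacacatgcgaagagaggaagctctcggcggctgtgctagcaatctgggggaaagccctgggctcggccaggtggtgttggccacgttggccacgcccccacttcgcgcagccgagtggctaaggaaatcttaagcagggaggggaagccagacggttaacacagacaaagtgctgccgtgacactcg

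A promoter sequence of 300 bases was found for 53 members, and of several the one nearest the GENCODE canonical start was taken. The 35116 promoters set beside them were not reduced in this way. The shares below therefore come from unlike sets and do not measure an enrichment. Searched on both strands, GGGCGG was held by 41 of these 53 promoters and by 45% of all 35116 promoters, and CCAAT by 24 of 53 and 34.6%. KMT5B held 3 GC boxes, at 202, 154 and 79 bases before its start, and KMT5A held 1, at 107 bases before the start. TTTGGCGC was held by the EZH2 promoter only among the members and by 0.652% of all promoters. The glucocorticoid receptor half-site AGAACA was held by KDM4F, SMYD1 and SMYD5, that is 3 of 53, against 14.8% of all promoters, and the palindrome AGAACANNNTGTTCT by 0 members and 0.00285% of promoters. The PRDM1 window held none of these letter strings. These matches describe letters in a window and do not locate bound factors.

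More members were called in the comparisons between siRNAs than in the Dex responses described further on, which had a stricter threshold and a fold limit. The same held over all genes. A comparison between siRNAs was called at an adjusted p (edgeR's quasi-likelihood test, Benjamini-Hochberg over 15298 genes) under 0.05. HP1γ depletion without Dex moved 28 of 52 members, 25 up and 3 down, where 31.8% of all genes were called, 16.5% higher and 15.2% lower. Likewise 39 of 52 differed between siPRMT5 Eth and siNS Eth cells, 32 higher and 7 lower, where 42.1% of all genes were called, 20.6% higher and 21.6% lower. With Dex, siHP1γ cells differed from siNS cells in 14 members, 9 higher and 5 lower, against 24% of all genes (11.7% higher and 12.3% lower), and siPRMT5 cells in 25 members, 19 higher and 6 lower, against 42.4% (20.6% and 21.9%). With library sizes alone as the scale, siHP1γ cells had 14 members higher and 4 lower with Dex and 27 higher and 3 lower with Eth, and the share of higher calls among all called genes moved from 48.7% to 69.2% and from 52.1% to 63.8%.

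The median log2 difference of the 52 members was 0.27 in siHP1γ Eth and 0.34 in siPRMT5 Eth cells, against medians of 0.01 and 0 over all genes. With Dex the members' medians were 0.09 and 0.17. The 3 libraries of each condition did not overlap for 34 members in siHP1γ Eth against siNS Eth (65.4%, all genes 45.5%) and for 42 in siPRMT5 Eth against siNS Eth (80.8%, all genes 49.1%). With Dex this held for 20 members (38.5%, all genes 36.9%) and 28 members (53.8%, all genes 51.5%). Both depletions were compared with the same siNS libraries, so a low or high siNS value enters both. A call with Eth and none with Dex, or the reverse, does not show that the effect differed between the treatments: that difference, tested as an interaction, passed for 1 member, PRDM1.

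**Figure D1:**
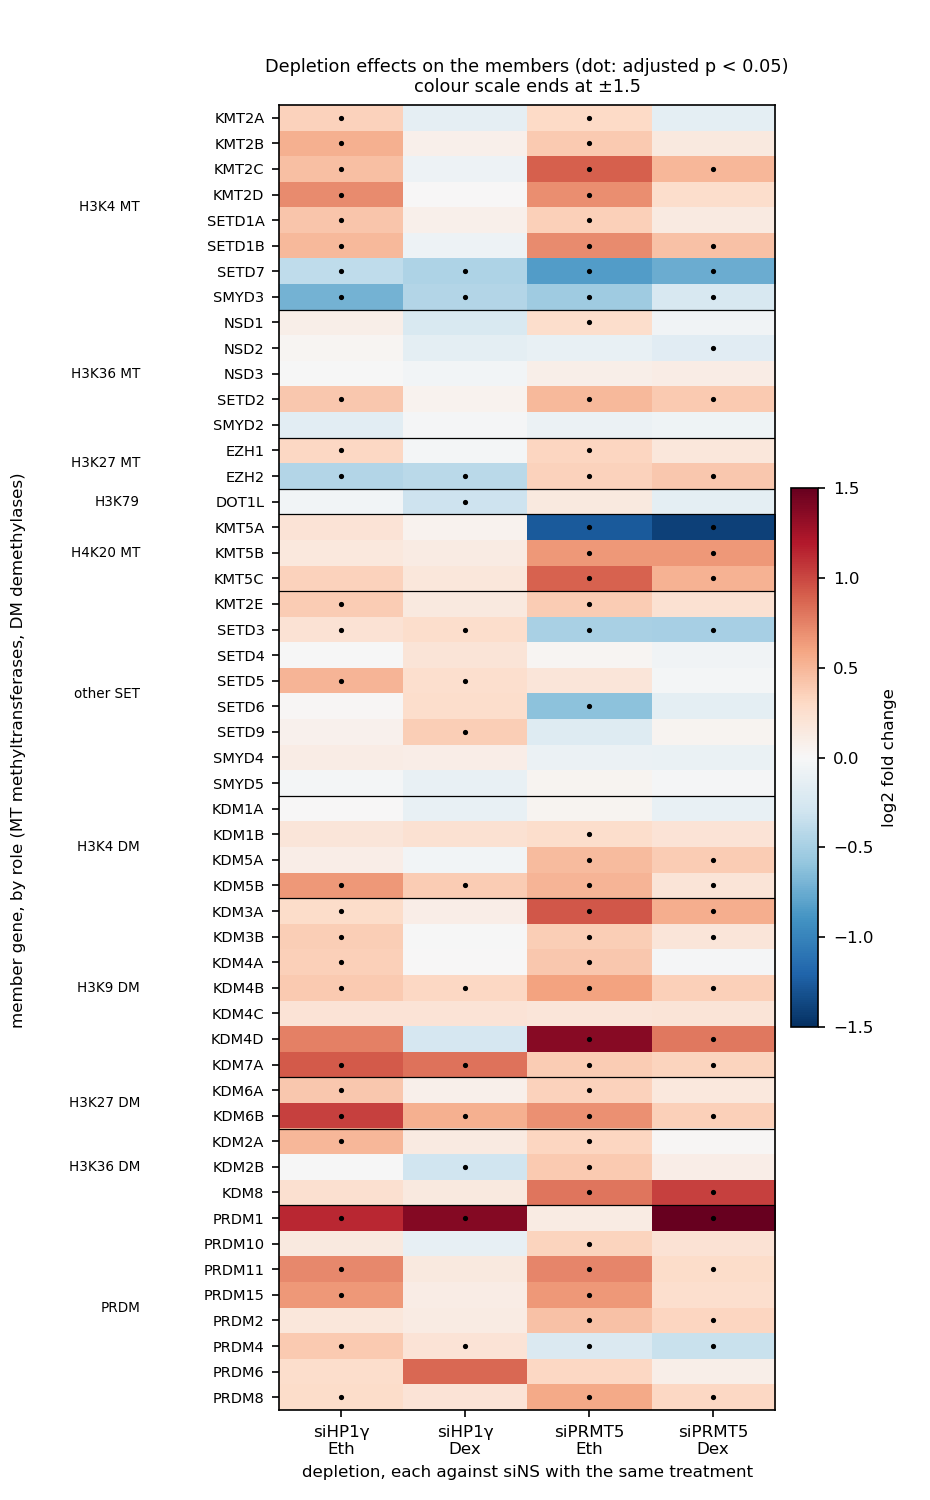
Log2 fold changes (colour) of the tested members, 1 of them not drawn, in rows by role, for each depletion against siNS cells with the same treatment, in columns; a dot marks an adjusted p under 0.05. The Eth columns hold 25 (siHP1γ) and 32 (siPRMT5) members called higher, and the darkest blue cells are KMT5A in siPRMT5 cells.

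In all, 9 members, where 6.42% of all genes did so, passed the threshold in all 4 of these comparisons: EZH2, KDM4B, KDM5B, KDM6B, KDM7A, PRDM4, SETD3, SETD7 and SMYD3. A further 8 (KDM1A, KDM4C, NSD3, PRDM6, SETD4, SMYD2, SMYD4 and SMYD5) passed it in none, as did 30.7% of all genes. Apart from PRDM6, which had 2 to 17 reads per library, these 8 had log2 differences of -0.16 (SMYD2) to 0.21 (KDM4C). The 11 members called with and without Dex in siHP1γ cells had the same direction in both, as did the 23 in siPRMT5 cells. The matching counts over all genes were not taken, so this does not set the members apart from other genes. A called change of at least 2-fold was found for 5 members (KDM4D, KDM6B, KDM8, KMT5A and PRDM1), and of at least 1.5-fold for 19, against 12.8% and 32.1% of all genes. Of these 5 members, KDM4D, KDM8 and PRDM1 averaged under 5 CPM (2.18, 4.09 and 3.53), where precision was most limited.

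Among the 3 writers of H4K20 methylation, PRMT5 depletion lowered KMT5A and raised KMT5B and KMT5C. KMT5A (SET8) is the sole H4K20 monomethyltransferase and acts in mitosis and replication, and KMT5B and KMT5C use its product to make di- and trimethylated H4K20. KMT5A (chr12:123384132-123409353, plus strand, hg38) was at 34.7, 37.6 and 41.3 CPM in the siNS Eth libraries, and at 40.1, 36.6 and 40.6 CPM with Dex. It was at 13.8, 18.1 and 15.6 CPM in siPRMT5 Eth and 13.1, 15.6 and 16 CPM in siPRMT5 Dex libraries. All 6 siPRMT5 libraries thus lay below all 12 others, which included siHP1γ values of 39.9 to 45.9 CPM. KMT5A fell by 1.26 on the log2 scale in siPRMT5 Eth cells (SE 0.105, adjusted p 4.16e-10, a 2.4-fold decrease) and by 1.39 in siPRMT5 Dex cells (SE 0.104, adjusted p 4.48e-11, 2.63-fold). In siHP1γ cells its log2 differences were 0.21 without Dex (adjusted p 0.0963) and 0.06 with Dex (adjusted p 0.702).

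KMT5B stood at 57.3, 52.3 and 61.2 CPM in siNS Eth libraries and at 89.3, 93.8 and 86 CPM in siPRMT5 Eth libraries. With Dex it was at 57.2, 61.5 and 57.5 CPM in siNS and 91.9, 87.3 and 96.6 CPM in siPRMT5 libraries, again with no overlap. With Eth the siHP1γ libraries, at 63.14 to 64.25 CPM, lay above the siNS ones, and with Dex, at 60.3 to 66.2 CPM, they overlapped them. Neither difference was called. Under both treatments the siHP1γ libraries lay below the siPRMT5 ones. The log2 difference of KMT5B in siPRMT5 cells was 0.66 (SE 0.0739, adjusted p 8.11e-08) with Eth and 0.65 (SE 0.073, adjusted p 8.32e-08) with Dex. KMT5C, a weakly expressed member, rose from 4.22 ± 0.611 to 7.91 ± 1.55 CPM (SD, n = 3) with Eth, by 0.89 on the log2 scale (adjusted p 0.000914). With Dex its difference of 0.52 (adjusted p 0.0391) lost the call when siNS Dex replicate 1 or 2, or siPRMT5 Dex replicate 1 or 3, was left out, with an adjusted p of up to 0.187.

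A pseudogene shares sequence with KMT5A: KMT5AP1 held 58 to 219 reads per library and moved the same way, by -0.95 (Eth) and -1.41 (Dex) in siPRMT5 cells. How reads were divided between them in the authors' counting is not given in the sources used here.

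**Figure D2:**
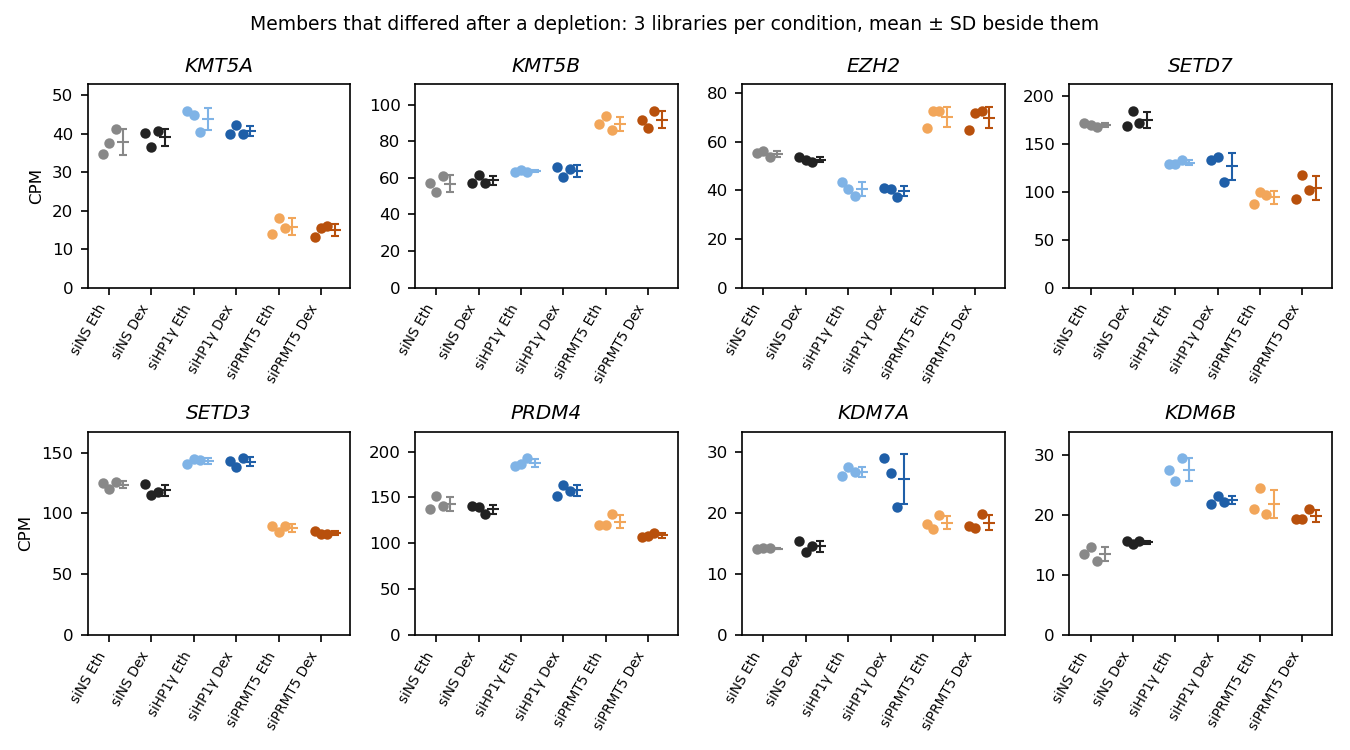
CPM (linear axis from 0) of 8 members in the 6 conditions, with 1 point per library and the mean ± SD of the 3 libraries beside them. KMT5A sits between 13.1 and 18.1 CPM in siPRMT5 libraries and at 34.7 CPM or above elsewhere, and EZH2 is low in siHP1γ and high in siPRMT5 libraries.

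The H3K27 methyltransferase EZH2 was lower after HP1γ depletion and higher after PRMT5 depletion. EZH2 is the main catalytic subunit of Polycomb repressive complex 2 (PRC2), is a target of E2F factors and is abundant in dividing cells, whereas its paralog EZH1 is found more in resting cells. EZH2 was at 55.3, 56 and 53.8 CPM in siNS Eth, 43.6, 40.4 and 37.6 CPM in siHP1γ Eth and 65.5, 72.7 and 72.5 CPM in siPRMT5 Eth libraries. With Dex the libraries were at 53.7, 52.5 and 51.8 CPM (siNS), 41, 40.7 and 37.4 CPM (siHP1γ) and 65, 72 and 72.7 CPM (siPRMT5). The 3 kinds of cell did not overlap under either treatment.

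Against siNS, EZH2 fell by 0.44 (SE 0.0784, adjusted p 0.000103) and by 0.41 (SE 0.0778, adjusted p 0.000351) on the log2 scale in siHP1γ cells with Eth and Dex. It rose by 0.35 (SE 0.0762, adjusted p 0.000544) and 0.41 (SE 0.0755, adjusted p 9.45e-05) in siPRMT5 cells. Compared directly, EZH2 was 1.73-fold higher in siPRMT5 than in siHP1γ cells with Eth and 1.76-fold higher with Dex (adjusted p 5.09e-09 and 2.38e-09). EZH1 was higher in both depletions with Eth, by 0.31 and 0.32, and its differences with Dex, -0.03 and 0.17, did not pass. The pseudogene EZH2P1 had 14 to 55 reads per library.

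The other PRC2 subunits were compared as a list of 10 genes, of which 8 were tested. In siPRMT5 Dex cells 5 of 8 were higher and 0 lower, among them SUZ12, the core scaffold subunit (0.48), and the accessory subunit MTF2 (0.55). In siPRMT5 Eth cells 4 were higher and 0 lower, and SUZ12 was not called there (0.23, adjusted p 0.0502). In siHP1γ Eth cells 1 was higher and 3 lower, the latter including EED, which reads methylated H3K27 (-0.24), and in siHP1γ Dex cells 1 was lower.

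Both H3K27 demethylases were called higher after depletion, KDM6B in all 4 comparisons and KDM6A with Eth only. KDM6B (JMJD3) is an inducible JmjC demethylase known for its part in inflammation and differentiation, and KDM6A (UTX) belongs to the KMT2C and KMT2D complexes. KDM6B was at 13.5, 14.7 and 12.3 CPM in siNS Eth, 27.6, 25.6 and 29.4 CPM in siHP1γ Eth and 20.9, 24.4 and 20.1 CPM in siPRMT5 Eth libraries. With Dex it was at 15.1 to 15.6 CPM in siNS, 21.9 to 23.2 CPM in siHP1γ and 19.2 to 21.1 CPM in siPRMT5 libraries. No depleted library overlapped a siNS library. The log2 differences were 1.03 (SE 0.101, adjusted p 2.48e-08) and 0.53 (SE 0.0992, adjusted p 0.000252) in siHP1γ cells with Eth and Dex. In siPRMT5 cells they were 0.69 (SE 0.105, adjusted p 7.4e-06) and 0.36 (SE 0.101, adjusted p 0.00564). The smaller differences with Dex were not shown to differ from those with Eth (interaction adjusted p 0.1 for siHP1γ and 0.212 for siPRMT5). KDM6A was higher with Eth, by 0.41 and 0.35 (adjusted p 0.00605 and 0.0139). With Dex its differences, 0.08 in siHP1γ and 0.16 in siPRMT5 cells, were not called.

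All 8 H3K4 methyltransferases differed from siNS in both depletions without Dex: the 6 catalytic subunits of the COMPASS complexes were higher, and SETD7 and SMYD3 were lower. Over all genes 31.8% (HP1γ) and 42.1% (PRMT5) were called there. SETD1A and SETD1B make most of the H3K4 trimethylation of promoters, KMT2A and KMT2B act at chosen gene sets, and KMT2C and KMT2D monomethylate enhancers. The log2 differences of these 6 ranged from 0.35 (KMT2A) to 0.71 (KMT2D) in siHP1γ Eth cells and from 0.30 (KMT2A) to 0.90 (KMT2C) in siPRMT5 Eth cells. With Dex, 0 of 6 passed in siHP1γ cells, where the values ran from -0.13 to 0.08, and KMT2C and SETD1B passed in siPRMT5 cells (0.50 and 0.44).

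KMT2D was at 64.8, 93.5 and 71.9 CPM in siNS Eth, 137, 113 and 127 CPM in siHP1γ Eth and 108, 135 and 131 CPM in siPRMT5 Eth libraries. In the Dex libraries it was at 98.3, 100.2 and 92.7 CPM (siNS), 95, 111 and 86.3 CPM (siHP1γ) and 89.7, 130.5 and 129.7 CPM (siPRMT5). The siNS Eth libraries lay below the depleted Eth libraries, and the Dex libraries of siNS and siHP1γ cells overlapped. The difference in siHP1γ Eth cells was 0.71 (SE 0.13, adjusted p 0.000151) and that in siPRMT5 Eth cells 0.70 (SE 0.131, adjusted p 0.00011).

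KMT2C was at 55, 61.9 and 55.1 CPM in siNS Eth and 87, 124 and 111 CPM in siPRMT5 Eth libraries, which differed by 0.90 (SE 0.132, adjusted p 4.53e-06). With Dex it was at 70.1, 81.7 and 76.2 CPM in siNS and 86.3, 129 and 106 CPM in siPRMT5 libraries, without overlap, a difference of 0.50 (SE 0.129, adjusted p 0.00255). In siNS cells the log2 differences of the 6 genes with Dex against Eth were 0.19 to 0.41, and none passed the Dex threshold, with adjusted p of 0.0207 (KMT2B) to 0.332 (SETD1A). The difference of the Dex response between siHP1γ and siNS cells was -0.35 to -0.71 for the 6, and none passed in edgeR (adjusted p 0.0828 to 0.245). DESeq2 on the same libraries put KMT2A, KMT2D and SETD1B below 0.05. In edgeR, KMT2D also passed with a replicate block (adjusted p 0.0476) and on the libraries of the comparison alone (0.0424), and KMT2A, KMT2C, KMT2D and SETD1B passed with no filter on low counts (0.00352, 0.00569, 4.69e-06 and 0.0223). The call thus depended on the tool, the filter and the design.

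**Figure D3:**
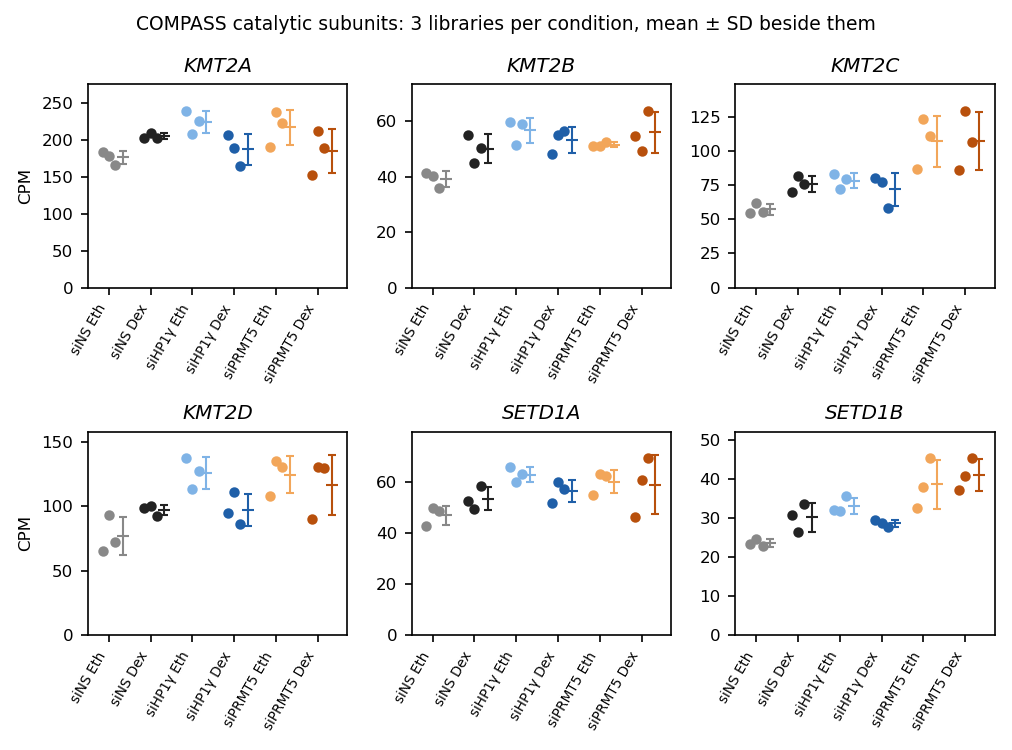
CPM (linear axis from 0) of the 6 COMPASS catalytic subunits in the 6 conditions, with 1 point per library and the mean ± SD beside them. For each gene the siNS Eth libraries (grey) lie below the siHP1γ Eth and siPRMT5 Eth libraries, while the Dex libraries of siNS and siHP1γ cells overlap.

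The 12 shared and complex-specific COMPASS subunits moved in both directions. Without Dex, 2 were higher and 3 lower in siHP1γ cells, and 6 were higher and 1 lower in siPRMT5 cells, with DPY30, a core subunit, lower in both (-0.44 and -0.45). With Dex, HP1γ depletion lowered 2 and PRMT5 depletion raised 2. Without Dex the called shares were 41.7% (siHP1γ) and 58.3% (siPRMT5), against 31.8% and 42.1% of all genes. With Dex they were 16.7% in both, against 24% and 42.4% of all genes.

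SETD7 and SMYD3 were lower in all 4 comparisons. SETD7 monomethylates H3K4 and several transcription factors, and SMYD3 methylates histones and the kinase MAP3K2. SETD7 was at 171, 169.5 and 167 CPM in siNS Eth, 129, 129 and 133 CPM in siHP1γ Eth and 86.8, 100 and 96.6 CPM in siPRMT5 Eth libraries. With Dex it was at 169, 184 and 172 CPM (siNS), 133, 136 and 110.4 CPM (siHP1γ) and 92.5, 117 and 102 CPM (siPRMT5). The siNS libraries stood above all depleted ones under each treatment, and with Dex the siHP1γ and siPRMT5 libraries overlapped. SETD7 fell by 0.38 (SE 0.0832, adjusted p 0.00102) and 0.47 (SE 0.0828, adjusted p 0.000144) after HP1γ depletion and by 0.84 (SE 0.0849, adjusted p 1.2e-08) and 0.75 (SE 0.0838, adjusted p 7.23e-08) after PRMT5 depletion, with Eth and Dex in turn.

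SMYD3 was at 42.3, 42 and 40.5 CPM in siNS Eth, 26.3, 22.9 and 27.4 CPM in siHP1γ Eth and 30.7, 25.4 and 30.1 CPM in siPRMT5 Eth libraries. With Dex the siNS libraries were at 35.7 to 39.9 CPM, the siHP1γ libraries at 26.8 to 28.1 CPM and the siPRMT5 libraries at 30.6 to 32.9 CPM. The depleted libraries were below siNS throughout, by 0.70 and 0.44 after HP1γ depletion (adjusted p 1.34e-06 and 0.000513) and by 0.53 and 0.24 after PRMT5 depletion (adjusted p 2.75e-05 and 0.031).

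Of the H3K4 demethylases, KDM5B was higher in all 4 comparisons and KDM5A in siPRMT5 cells, while KDM1A was called in none. KDM5A and KDM5B are JmjC enzymes that remove H3K4 trimethylation, and KDM1A (LSD1) removes mono- and dimethylation within the CoREST complex. KDM5B was at 69.7, 62.9 and 65.2 CPM in siNS Eth, 105, 95.7 and 109 CPM in siHP1γ Eth and 91.4, 91.1 and 98.7 CPM in siPRMT5 Eth libraries. Under Dex the values were 62.5 to 70.6 CPM in siNS, 83.4 to 89.4 CPM in siHP1γ and 74.2 to 80.8 CPM in siPRMT5 libraries, above siNS without overlap. Its differences were 0.65 and 0.38 in siHP1γ cells (adjusted p 2.79e-07 and 0.000433) and 0.51 and 0.19 in siPRMT5 cells (adjusted p 4.64e-06 and 0.039). KDM5A differed in siPRMT5 cells by 0.48 and 0.38 (adjusted p 8.49e-06 and 0.000126) and in siHP1γ cells by 0.10 and -0.04 (adjusted p 0.348 and 0.743), and it was higher in siPRMT5 than in siHP1γ cells under both treatments. KDM1B, the other FAD-dependent demethylase, was higher in siPRMT5 Eth cells (0.27, adjusted p 0.0302).

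KDM1A lay between 111 and 133 CPM in all 18 libraries. Its log2 differences in the 4 comparisons ran from -0.11 to 0.04, with standard errors of 0.0635 to 0.0641. Of 9 tested KDM1A partner genes, 4 were higher and 3 lower in siPRMT5 Dex cells (77.8%, all genes 42.4%). HMG20B, a CoREST-associated HMG protein, was the lowest of them, at -1.86 with Dex, and PHF21A, a CoREST subunit that reads unmethylated H3K4, was higher in all 4 comparisons (0.37 to 0.76). Of the 9 partner genes, 55.6% were called in siPRMT5 Eth, 33.3% in siHP1γ Eth and 22.2% in siHP1γ Dex cells. In that order 42.1%, 31.8% and 24% of all genes were called.

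Among the 7 tested H3K9 demethylases every called difference was an increase: 5 in siHP1γ Eth, 2 in siHP1γ Dex, 6 in siPRMT5 Eth and 5 in siPRMT5 Dex cells. In the same order 16.5%, 11.7%, 20.6% and 20.6% of all genes were called higher. KDM7A, a JmjC demethylase of H3K9 and H3K27 mono- and dimethylation, was at 14, 14.3 and 14.2 CPM in siNS Eth and 26, 27.6 and 26.7 CPM in siHP1γ Eth libraries. The Dex values were 13.6 to 15.4 CPM in siNS and 29, 26.6 and 21 CPM in siHP1γ libraries, and the siPRMT5 libraries of both treatments lay at 17.4 to 19.8 CPM. The order siNS, siPRMT5, siHP1γ held with no overlap between neighbours under either treatment. KDM7A was higher by 0.92 (SE 0.11, adjusted p 5.95e-07) and 0.81 (SE 0.108, adjusted p 3.19e-06) in siHP1γ cells and by 0.38 (SE 0.116, adjusted p 0.00979) and 0.33 (SE 0.112, adjusted p 0.0189) in siPRMT5 cells.

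KDM3A, an H3K9 mono- and dimethyl demethylase induced by hypoxia, was highest in siPRMT5 cells. It was at 46, 51.9 and 43.3 CPM in siNS Eth, 56.8, 57.4 and 56.2 CPM in siHP1γ Eth and 84.1, 95 and 90.7 CPM in siPRMT5 Eth libraries. Dex-treated libraries were at 45.1 to 49.6 CPM in siNS, 47.7 to 56.4 CPM in siHP1γ and 68.5 to 70.5 CPM in siPRMT5 libraries, so that siNS and siHP1γ overlapped. It rose by 0.93 (SE 0.0819, adjusted p 1.04e-09) and 0.55 (SE 0.0817, adjusted p 5.84e-06) in siPRMT5 cells and by 0.27 (adjusted p 0.0142) in siHP1γ Eth cells. The H3K9 and H3K36 trimethyl demethylase KDM4B was higher in all 4 comparisons (0.31 to 0.61), and KDM4C in none. KDM4A, of the same subfamily, was higher in both depletions with Eth (0.35 and 0.40), and KDM3B, a paralog of KDM3A, with Eth (0.37 in both) and in siPRMT5 Dex cells (0.18). KDM4D, at 7 to 40 reads per library, was higher in siPRMT5 cells (1.36 with Eth, adjusted p 0.00191, and 0.79 with Dex, adjusted p 0.0318).

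Of the H3K36 methyltransferases, SETD2 was called in 3 of the 4 comparisons and was higher in each. It is the sole enzyme that trimethylates H3K36 and travels with elongating RNA polymerase II. SETD2 was at 183, 179.6 and 180.1 CPM in siNS Eth, 249, 230 and 239 CPM in siHP1γ Eth and 218, 272 and 270.2 CPM in siPRMT5 Eth libraries, without overlap of siNS with either. It rose by 0.40 (SE 0.0943, adjusted p 0.00182) and 0.49 (SE 0.0944, adjusted p 0.000169) in turn. Its Dex levels were 210.2, 222 and 219 CPM in siNS, 244, 239.7 and 194 CPM in siHP1γ and 244, 319 and 292 CPM in siPRMT5 libraries. These gave differences of 0.06 (adjusted p 0.701) in siHP1γ and 0.39 (SE 0.0934, adjusted p 0.00127) in siPRMT5 cells. Of the enzymes that dimethylate H3K36, NSD1 was higher in siPRMT5 Eth cells (0.27) and NSD2 lower in siPRMT5 Dex cells (-0.17), and NSD3 and SMYD2 were called in none.

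All 3 H3K36 demethylase members were higher in siPRMT5 Eth cells, as were 20.6% of all genes. KDM8, a JmjC protein at 22 to 79 reads per library, was at 4.71 ± 0.725 CPM in siPRMT5 Eth and 2.69 ± 0.241 CPM in siNS Eth libraries (SD, n = 3). The Dex means were 6.88 ± 0.861 and 3.33 ± 0.454 CPM. It rose by 0.81 (adjusted p 0.00236) and 1.03 (adjusted p 4.22e-05). KDM2B, which brings a variant Polycomb complex to CpG islands, fell by 0.30 in siHP1γ Dex cells (adjusted p 0.01) and rose by 0.39 in siPRMT5 Eth cells (adjusted p 0.000486). Its paralog KDM2A was higher in both depletions with Eth (0.49 and 0.32).

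DOT1L, the sole H3K79 methyltransferase, was called in 1 comparison, siHP1γ Dex cells, at 47.5, 52.8 and 51.7 CPM against 67.7, 57 and 63.7 CPM in siNS Dex libraries, with no overlap (-0.31, SE 0.0824, adjusted p 0.00661). Without siNS Dex replicate 1 the difference was -0.25 and its adjusted p 0.0549.

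Among SET-domain members with other substrates, SETD3 and PRDM4 separated the 2 depletions as EZH2 did, in the other direction. SETD3 is the histidine methyltransferase of actin. SETD3 was at 125, 120 and 126 CPM in siNS Eth, 141, 144 and 144 CPM in siHP1γ Eth and 89.8, 84.4 and 89.6 CPM in siPRMT5 Eth libraries. After Dex it stood at 115 to 124 CPM in siNS, 138 to 145 CPM in siHP1γ and 82.7 to 85.5 CPM in siPRMT5 libraries, so the 3 kinds of cell did not overlap. It rose by 0.21 and 0.26 after HP1γ depletion (adjusted p 0.0087 and 0.00246) and fell by 0.49 and 0.50 after PRMT5 depletion (adjusted p 5.37e-07 and 3.23e-07).

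PRDM4 is a zinc finger protein known to recruit PRMT5 in neural stem cells. PRDM4 was at 137, 152 and 140.4 CPM in siNS Eth, 185, 186 and 193 CPM in siHP1γ Eth and 119.5, 119.6 and 132 CPM in siPRMT5 Eth libraries. Under Dex the values were 131 to 140.3 CPM in siNS, 152 to 164 CPM in siHP1γ and 107 to 112 CPM in siPRMT5 libraries, again without overlap. It rose by 0.39 and 0.20 after HP1γ depletion (adjusted p 4.26e-05 and 0.0218) and fell by 0.21 and 0.33 after PRMT5 depletion (adjusted p 0.0103 and 0.00017).

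SETD6, which methylates the NF-κB subunit RELA, was at 10.4, 9.98 and 9 CPM in siPRMT5 Eth against 14.6, 15.7 and 14.8 CPM in siNS Eth libraries. It fell by 0.62 there (SE 0.132, adjusted p 0.00044) and differed by -0.14 with Dex (adjusted p 0.385). SETD9 was at 12, 10.5 and 10.7 CPM in siHP1γ Dex and 8.66, 8.06 and 9.07 CPM in siNS Dex libraries, which did not overlap, a difference of 0.37 (adjusted p 0.0431) that 8 of the 18 fits with 1 library left out did not call, with adjusted p of up to 0.165. DESeq2 did not call it either (adjusted p 0.077). SETD5, which binds HDAC3 and NCoR complexes, was higher in siHP1γ cells (0.51 with Eth and 0.25 with Dex), and KMT2E, an inactive relative of the KMT2 enzymes, in both depletions with Eth (0.38 and 0.39).

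PRDM11, a weakly studied PR-domain factor, was higher in both depletions without Dex. It was at 12.8, 13.7 and 13.6 CPM in siNS Eth, 20.8, 23.5 and 21.9 CPM in siHP1γ Eth and 21.1, 22.3 and 23.3 CPM in siPRMT5 Eth libraries, with no overlap of siNS with the others. It rose by 0.72 (SE 0.103, adjusted p 6.79e-06) and 0.74 (SE 0.104, adjusted p 2.65e-06). In siNS Dex libraries it lay at 17.1 to 19.1 CPM, and the differences with Dex were 0.14 (adjusted p 0.311) in siHP1γ and 0.27 (adjusted p 0.0272) in siPRMT5 cells. PRDM15, a zinc finger factor of early development, was likewise higher with Eth (0.65 in both depletions), and PRDM2 and PRDM10 were higher in siPRMT5 Eth cells (0.44 and 0.33). PRDM2 was also called higher in siPRMT5 Dex cells.

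The Dex response was called at an adjusted p under 0.01 and at least 1.5-fold. It included 0 of 52 members in siNS cells, where 2.71% of all genes were called (1.65% higher and 1.06% lower), 0 in siHP1γ cells (1.67%; 1.01% and 0.66%) and 2 in siPRMT5 cells (5.44%; 2.69% and 2.75%). At an unadjusted p under 0.05, 16 members differed in siNS cells, 15 of them higher with Dex and 1 lower (22.4% of all genes, 11.5% higher and 10.8% lower). In siHP1γ cells 11 differed, 0 higher and 11 lower (18%, with 8.37% and 9.62%), and in siPRMT5 cells 9, of which 3 were higher and 6 lower (26.7%, with 12.7% and 14%). At an adjusted p under 0.05 with no limit on the fold, 5 members differed in siNS, 3 in siHP1γ and 5 in siPRMT5 cells, against 9.16%, 5.55% and 16% of all genes. DESeq2 called 0 in siNS and siHP1γ cells. The difference of the Dex response from that of siNS cells passed for 0 members in siHP1γ cells (0.399% of all genes, 0.118% higher and 0.281% lower) and for 1 member, PRDM1, in siPRMT5 cells (3.8%, with 1.58% higher and 2.23% lower). In siHP1γ cells the difference was under an unadjusted p of 0.05 for 24 members, 2 positive and 22 negative (17.2% of all genes, 8.16% and 9.07%), and DESeq2 called 5. In siPRMT5 cells this held for 17 members, 3 positive and 14 negative (19% of all genes, 8.76% and 10.3%), and DESeq2 called 2. The 3 responses share the siNS Eth and Dex libraries where they are set against each other.

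PRDM1 (Blimp-1) is a transcriptional repressor known from plasma cell and germ cell differentiation, and in germ cells it acts with PRMT5. It was read by 13 to 69 reads per library, lies below the level set for naming members, and was chosen after its values were seen. PRDM1 was at 2.32, 1.94 and 2.07 CPM in siNS Eth and 2.21, 1.52 and 1.18 CPM in siNS Dex libraries. It was at 4.88, 4.39 and 4.59 CPM in siHP1γ Eth and 4.25, 4.3 and 4.33 CPM in siHP1γ Dex libraries. In siPRMT5 cells it was at 1.82, 2 and 3 CPM with Eth and at 6.45, 5.67 and 6.56 CPM with Dex. Thus siPRMT5 Eth overlapped siNS Eth, while siPRMT5 Dex was above all other libraries.

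Dex raised PRDM1 by 1.43 on the log2 scale in siPRMT5 cells (SE 0.2, adjusted p 6.21e-06, 2.69-fold), and its Dex responses were -0.35 (SE 0.259, adjusted p 0.477) in siNS and -0.10 (SE 0.18, adjusted p 0.833) in siHP1γ cells. The difference of the response between siPRMT5 and siNS cells was 1.78 (SE 0.331, adjusted p 0.00267), and 1.59 to 2.09 with any 1 library left out. HP1γ depletion raised PRDM1 by 1.13 with Eth and 1.37 with Dex (adjusted p 0.000211 and 4.03e-05). PRMT5 depletion raised it by 1.90 with Dex (adjusted p 4.89e-08), and with Eth the difference was 0.12 (adjusted p 0.724). ATG5 overlaps PRDM1 (chr6:105993463-106109939, plus strand, hg38) on the opposite strand, and the strand setting of the counting is not given in the sources used here. ATG5 was lower in all 4 depletion comparisons, from -0.70 to -1.17, and its Dex response in siPRMT5 cells was -0.09 (adjusted p 0.504). Its part in the PRDM1 reads was not tested.

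PRDM8, a neural PR-domain repressor, was lower with Dex in all 3 kinds of cell and was called in siPRMT5 cells. It went from 39.6, 36.8 and 39.2 CPM with Eth to 30.6, 26.9 and 26 CPM with Dex in siNS libraries. In siHP1γ libraries it went from 47.6, 45.1 and 47.6 to 31.7, 34.8 and 30.2 CPM, and in siPRMT5 libraries from 53.2, 62.5 and 56.5 to 34.9, 33.4 and 36 CPM. The Eth and Dex libraries did not overlap in any of the 3. The log2 differences were -0.47 (SE 0.0883, adjusted p 0.000619), -0.54 (SE 0.0849, adjusted p 0.000105) and -0.72 (SE 0.0845, adjusted p 3.44e-07), and the first 2 missed the 1.5-fold limit only. The response in siPRMT5 cells was not shown to differ from that in siNS cells (-0.26, SE 0.122, adjusted p 0.248). Against siNS, PRDM8 was called higher in siHP1γ Eth cells and in siPRMT5 cells with both treatments, so these responses began from unlike levels.

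**Figure D4:**
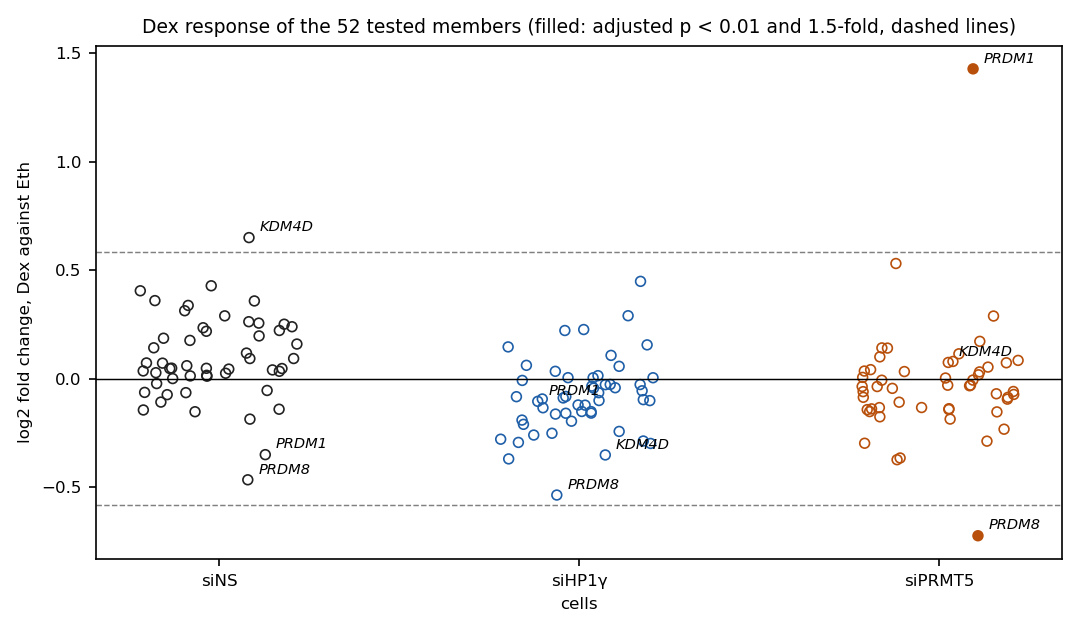
Log2 fold change of Dex against Eth for the 52 tested members (points, spread sideways to be seen) in siNS, siHP1γ and siPRMT5 cells; filled points passed an adjusted p under 0.01 and 1.5-fold (dashed lines). PRDM1 at 1.43 and PRDM8 at -0.72 in siPRMT5 cells are the filled points.

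Set directly against siHP1γ cells, siPRMT5 cells differed in 21 members with Eth, 11 higher and 10 lower (48.4% of all genes, 23.4% and 25%), and in 24 with Dex, 13 higher and 11 lower (49.9%, 24.4% and 25.5%). With library sizes alone as the scale the splits were 9 higher and 13 lower with Eth and 12 higher and 13 lower with Dex, and with DESeq2 size factors 11 and 9 with Eth and 14 and 8 with Dex. EZH2, KDM2B, KDM3A, KDM5A, KDM8, KMT2C and KMT5B were higher in siPRMT5 cells under both treatments, and KDM7A, KMT5A, PRDM4, SETD3, SETD5, SETD6 and SETD7 lower. The largest of these differences was that of KMT5A, at -1.47 with Eth and -1.45 with Dex. PRDM1 was the 1 member called in opposite directions, 2.01-fold lower with Eth (adjusted p 0.000321) and higher by 0.53 on the log2 scale with Dex (adjusted p 0.0126).

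The members have long transcripts, and long transcripts were shifted upward as a class in the depletion comparisons without Dex. The median canonical transcript (GENCODE) was 6042.5 bases for the 52 members and 3076 bases for the 13559 of 15298 tested genes with a length (88.6%). Among all genes of 6 kb and over, the median log2 difference was 0.09 in siHP1γ Eth and 0.11 in siPRMT5 Eth cells, and 27.2% and 33.1% were called higher. The 26 members of that class had medians of 0.39 and 0.37, with 16 and 19 called higher. For genes under 2 kb the medians over all genes were -0.05 in both. With Dex the medians of all genes of 6 kb and over were 0.015 in siHP1γ and 0.078 in siPRMT5 cells. Between siPRMT5 and siHP1γ cells they were 0.017 with Eth and 0.052 with Dex. The part of transcript length in the members' shift was not tested.

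Genes that supply the cofactors of these enzymes were compared as a list of 14, all tested. In siPRMT5 Dex cells 2 were higher and 5 lower, and in siPRMT5 Eth cells 2 higher and 4 lower. AHCYL1, a homolog of the enzyme that clears S-adenosylhomocysteine, was at -1.15 and -1.25 and OGDH, which consumes 2-oxoglutarate, at -1.02 and -0.49, with Dex and Eth in turn, while IDH1, which makes 2-oxoglutarate, was at 0.61 and 0.64. In siHP1γ cells 3 were higher and 1 lower with Dex, and 2 higher and 2 lower with Eth. Of the list, 50% and 42.9% were called in siPRMT5 cells with Dex and Eth, against 42.4% and 42.1% of all genes. In siHP1γ cells 28.6% were called with each treatment, against 24% (Dex) and 31.8% (Eth) of all genes. Of 14 tested methyltransferases and JmjC proteins whose symbols lie outside the rule, 6 were higher and 0 lower in siHP1γ Eth cells and 6 higher and 2 lower in siPRMT5 Eth cells, with ASH1L, an H3K36 methyltransferase, the highest at 0.82. The called shares were 42.9% and 57.1%, against 31.8% and 42.1% of all genes. With Dex, 0 of the 14 were higher and 1 lower in siHP1γ cells (7.14%, all genes 24%). In siPRMT5 Dex cells 3 were higher and 3 lower (42.9%, all genes 42.4%).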

How the data were processed

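RNA of 18 MDA-MB-231 libraries was analysed (6 conditions, 3 replicates each), grouped by the siRNA, treatment and replicate that the sample labels give. The authors prepared libraries with Lexogen kits, mapped reads on hg38 with Bowtie2 2.4.2 and counted them per gene with HTSeq 0.9.1. They deposited whole-number counts per gene symbol, not normalized. The strand setting and annotation are not given in the sources used here, and the kit type (whole transcript or 3′ end) is not either, so CPM was compared within a gene and never between genes. Reads over exon junctions, overlapping genes and pseudogenes can be miscounted by this route. A further deposited table holds the authors' fold changes, adjusted p-values and mean normalised counts, made with DESeq2 2.11.40.7, and was not used.

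Genes were filtered with filterByExpr, scaled by TMM and fitted in edgeR 4.0.16 (R 4.3.3) by quasi-likelihood, with 1 mean per condition, 12 residual degrees of freedom and Benjamini-Hochberg adjustment over 15298 genes. CPM used the TMM-scaled library sizes except for the cell markers. The standard error was taken from the log2 fold change and its F statistic. Dex responses were called at an adjusted p under 0.01 and 1.5-fold, and other comparisons at 0.05. An exact permutation test of 3 against 3 cannot go below 0.1. Counts of 3 replicates limit precision most for members under 5 CPM.

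The members, role lists and partner lists were chosen with earlier results of these data known, so their direction is not independent evidence. Members of at least 5 CPM on average were named in full if called for Dex or an interaction, or if among the 4 largest increases or decreases of a depletion comparison, and KDM1A, EZH2 and SETD2 were always named. KMT2C, KMT2D and the rest of their list, and members named in passing, were given by role. The values of 1 tested member, counted in all totals, are not reported here. Same-numbered replicates did not deviate together: over 45 same-numbered pairs the correlation of deviations had a median of 0.007, and 6 exceeded 0.1. Alternatives were DESeq2 1.42.0, DESeq2 size factors, library size only, no filter, at least 10 counts in every library, a replicate block, the libraries of a comparison alone, a 2-fold limit for Dex, and each library left out. Coordinates are from GENCODE 44 on hg38 and promoters from RefSeq on GRCh38.p14.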

Additional observations from a re-analysis of the deposited data

Results flagged for a closer look

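In all, 3 differences of the Dex response between siPRMT5 and siNS cells passed the interaction test among the members and the partner lists. PRDM1 differed by 1.78 on the log2 scale (SE 0.331, adjusted p 0.00267 by edgeR). OGDH, of the cofactor list, differed by -0.53 (SE 0.121, adjusted p 0.0115), with a Dex response of 0.16 in siNS and -0.37 in siPRMT5 cells. RIOX2, a JmjC protein whose symbol lies outside the rule, differed by 0.44 (SE 0.106, adjusted p 0.017), with responses of 0.09 and 0.54. Groups of 3 libraries were too small to test for single outlying libraries. Compared in pairs, replicates differed most in siHP1γ Dex cells. The chi-square per degree of freedom of their counts was 12.33 for replicates 1 and 3 and 7.38 for 1 and 2. It was 3.23 for 2 and 3, and at most 7.23 in the other conditions.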

How the results depend on the processing

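Counts of members called in the 6 comparisons between siRNAs stayed within 1.5 times of the reported ones under every alternative. With 1 library left out in turn they ranged from 10 to 15 (siHP1γ Dex against siNS Dex), 22 to 28 (the same with Eth), 18 to 29 (siPRMT5 Dex against siNS Dex), 35 to 39 (with Eth), and 20 to 24 and 16 to 22 (siPRMT5 against siHP1γ with Dex and Eth). The Dex response gave 0 to 0 members in siNS, 0 to 1 in siHP1γ (1 without siHP1γ Dex replicate 2) and 2 to 2 in siPRMT5 cells, and 1 in siPRMT5 cells with a 2-fold limit. For the difference of the Dex response in siHP1γ cells, DESeq2 called 5, no filter 4, and the replicate block and the libraries of the comparison alone 1 each (KMT2D, adjusted p 0.0476 with the block), and 0 to 1 were called with 1 library left out. For that in siPRMT5 cells, DESeq2 and library size only called 2 each and no filter 4. With 1 library left out 1 to 4 were called, with 4 without siHP1γ Dex replicate 1, which is no library of that comparison, and 2 without siNS Eth replicate 2, siPRMT5 Eth replicate 1, or siPRMT5 Dex replicate 2 or 3. PRDM1 was among them each time. The causes were not tested.

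Replicate numbers did not pair the samples (correlations of -0.186 to 0.315 between same-numbered and -0.316 to 0.315 between other libraries). The replicate block gave 14, 28, 25 and 39 members for the depletions in the order above, 22 and 20 for siPRMT5 against siHP1γ with Dex and Eth, and 0, 0 and 2 for the Dex responses.

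Of the values of named members, 322 kept direction and side of the threshold under the other alternatives, 3 lost the call (SETD9) and 4 reversed. With 1 library left out 815 kept both, 13 lost the call (SETD9, KMT5C and DOT1L, given above) and 18 reversed. Reversals were of KDM1A in siHP1γ Eth cells, which is near 0: -0.0018 (DESeq2), -0.0019 (DESeq2 size factors), -0.0074 (at least 10 counts), -0.015 (libraries of the comparison alone) and -0.0203 to 0.0095 with 1 library left out, and of SETD2 in siHP1γ Dex cells, -0.0007 to 0.156. Depth limits KMT5C, PRDM1, KDM4D and KDM8 most, and PRDM6, at 2 to 17 reads per library, could not be judged.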
